A study of Mus musculus with 17 samples.

Results

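The comparison described here set the livers of young mice that carry a miR-29 transgene directly against the livers of naturally old wild-type mice. Of the 17 liver libraries in the study, 11 entered it: the 6 from miR-29 transgenic mice aged 2 months and the 5 from wild-type B6 mice aged 2 years, all chosen by their labels. The other 6 libraries, from wild-type B6 mice aged 2 months, serve only as a reference level. Polyadenylated RNA was sequenced in 2 batches that differ in library kit and sequencing centre. Batch A held 3 transgenic (2 male, 1 female) and 3 old libraries (1 male, 2 female), and batch B held 3 transgenic and 2 old libraries, all male. The young wild-type libraries were 2 males and 2 females in batch A and 2 males in batch B. Which member of the miR-29 family the transgene encodes, its promoter, the number of founder lines and the strain background of the transgenic animals are not given in the sources used here. Nothing in the labels says that each library is from an animal of its own, so p-values measure the spread between these libraries, which may be technical.

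MicroRNAs of the miR-29 family bind messages that carry a match to their seed and lower their stability or translation. Collagens, elastin and DNA methyltransferases are among the best known targets, and the level of miR-29 is known to rise with age in several tissues. Ageing liver is known for the expression of the cell cycle inhibitor Cdkn2a, for more resident lymphocytes and, in male mice, for a loss of androgen- and growth hormone-dependent gene expression. The series title ties miR-29 to ageing. A direct comparison of transgenic with old liver asks which genes still separate the livers of both kinds of animal.

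The mature miR-29 sequences are shown first because all 3 carry the same seed (bases 2 to 8, in capitals), so that a seed match in a message does not tell the family members apart. They are RefSeq entries, written 5′ to 3′.
mmu-miR-29a-3p: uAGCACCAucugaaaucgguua
mmu-miR-29b-3p: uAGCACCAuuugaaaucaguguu
mmu-miR-29c-3p: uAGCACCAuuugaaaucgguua
The precursor genes of the family, Mir29a through Mir29c, have a normalized value of 0 in each library of the deposited table, so the level of the microRNA itself was not measured. The next sequences are windows of 23 bases from 3′ UTRs of GRCm38 (mm10), with the 7 bases that pair with the seed (TGGTGCT) in capitals. They come from Adamts2, the only called gene with more than 1 match, and from collagen and Igf1 messages whose values follow.
Adamts2, site 1 of 4, chr11:50804952-50804974, plus strand: tgcagtttcaaaaccTGGTGCTc
Adamts2, site 2 of 4, chr11:50806436-50806458, plus strand: gacaccagataaagaTGGTGCTt
Adamts2, site 3 of 4, chr11:50806915-50806937, plus strand: cctctccagagttagTGGTGCTc
Adamts2, site 4 of 4, chr11:50807347-50807369, plus strand: ttttaagtatataaaTGGTGCTt
Col1a1, 1 site, chr11:94952523-94952545, plus strand: gtgggaaggaatttcTGGTGCTa
Col3a1, 1 site, chr1:45348967-45348989, plus strand: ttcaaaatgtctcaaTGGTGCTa
Col15a1, 1 site, chr4:47312485-47312507, plus strand: atccaatccacatatTGGTGCTa
Igf1, site 1 of 2, chr10:87931656-87931678, plus strand: tgttttttagtacaaTGGTGCTa
Igf1, site 2 of 2, chr10:87934290-87934312, plus strand: ccagctacgccaatgTGGTGCTa

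Values are the authors' normalized counts, given below as normalized values, and differences are transgenic minus old on the log2(value + 1) scale with batch as a term. That scale understates the change of low genes. Of the 14605 genes tested, 118 (0.808%) were called at a Benjamini-Hochberg adjusted p under 0.05 by limma. Of these, 39 (0.267%) were higher and 79 (0.541%) were lower in transgenic liver. The 6 transgenic libraries lay entirely above or entirely below the 5 old libraries in 269 genes (1.84%), of which 102 were above and 167 below, and 95 of the 118 called genes were among them. Of the genes called, 103 were protein coding. Without a correction for multiple testing, 1877 genes had a p under 0.05, where 730 of 14605 would be expected by chance. Of the 1877, 851 were higher and 1026 lower in transgenic liver, which is the background for list counts at an unadjusted p below. The median difference over all genes was 0.03.

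The count of calls rested on few libraries. It fell to 59, 67 and 37 without old replicate 1, 2 and 5, and to 66 and 61 without transgenic replicate 2 and 5. Without old replicate 4 it was 211 (65 higher, 146 lower). Old replicate 4, a batch B male, lay beside the transgenic libraries on the first principal component (26.8% of the variance), at 1.0. There the other old libraries lay between -77.6 and -21.6 and the transgenic ones between 8.7 and 85.2. On the second component (21.4%) old replicate 4 had the lowest value of the 11, -80.5. The transgenic libraries lay between -30.8 and 78.6 on that component, so this library stood apart from both groups there. With sex as a further term 124 genes (0.849%) were called (28 higher, 96 lower), 94 of them among the 118. In the 8 male libraries alone 104 of 14603 genes (0.712%) were called (36 higher, 68 lower), 53 of them among the 118. All 109 called genes that could be fitted in each batch alone had the same direction in both batches. They were called on these same libraries, which favours such agreement, so it is not an independent replication. The test of a difference between batches called 0 genes with limma, with 985 genes at an unadjusted p under 0.05. Normalized totals ran from 28077001 to 41774441 over the 11 libraries and are not read depths. Markers of hepatocytes were present in both groups, where the 15 hepatocyte identity genes took 10.5% to 23.7% of a transgenic and 13.1% to 19.2% of an old library. None of the defining markers of 8 other liver and blood cell types was at 0 in all libraries of a group. In bulk liver, fewer cells of a type and less RNA per cell cannot be told apart.

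**Figure D1:**
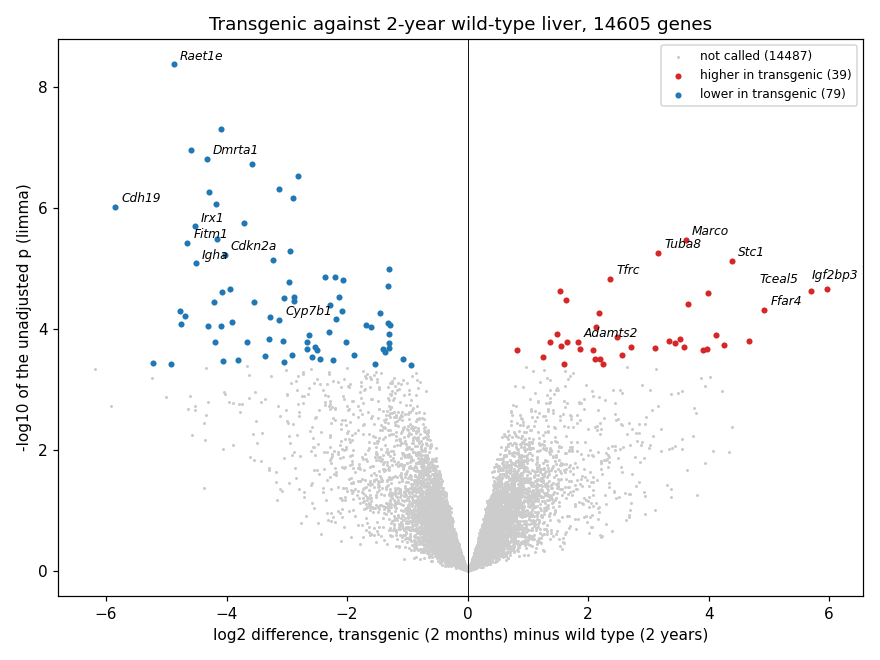
Log2 difference of each of 14605 genes (horizontal axis, transgenic minus old) against the -log10 of its unadjusted p from limma (vertical axis). Red points are the 39 genes called higher in transgenic liver, blue points the 79 called lower, and Raet1e has the smallest p.

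The smallest p of all genes belonged to Raet1e, which encodes a stress-induced ligand of the activating receptor NKG2D of natural killer cells. Old replicates 1 to 5 had normalized values of 531, 641, 276, 263 and 319. The 6 transgenic libraries ran from 4.09 to 21.9 with a median of 13.4. No transgenic library came near an old one, and young wild type lay between them at 35.6 to 190.6. The fold was 29.4 on the value + 1 scale (log2 difference -4.88 ± 0.34 SE, adjusted p = 6.24e-05), with -4.50 in batch A alone and -5.35 in batch B alone. The neighbouring family member Raet1d was also lower (-3.59 ± 0.34, adjusted p = 0.00056). Its gene model (chr10:22360552-22374139) lies inside that of Raet1e (chr10:22158569-22374139) on GRCm38 and the family is closely related in sequence, so how reads were divided between the 2 genes is uncertain.

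Cyp7b1, an oxysterol 7-alpha-hydroxylase of the acidic bile acid pathway and a male-biased liver gene, had 164 to 261 in transgenic liver with a median of 216. Old replicates 1 to 5 had 892, 1254, 7659, 723 and 3529, so that the groups did not overlap. The old females (replicates 1 and 2) and old replicate 4 were the low ones of the old group. The difference was -3.12 ± 0.53 (adjusted p = 0.0199), with -3.40 in batch A and -2.78 in batch B. Without single libraries it was called in 8 of 11 fits. Of 20 male-biased liver genes tested Cyp7b1 alone passed, but with sex as a term 3 were called lower (Cyp7b1, C6 and Susd4). In male libraries alone 5 were (these 3, Cyp2d9 and Serpina1e, whose family are close copies), and 6 without old replicate 4. Over all genes the lower calls were 96 with sex as a term, 68 in males and 146 without old replicate 4. The members other than Cyp7b1 are named after their values were seen. Of the 20 genes 1 had a difference above 0, and 9 were lower at an unadjusted p under 0.05, beside 1026 of all 14605 genes. The median was -1.87 beside 0.03 over all genes, with -2.28 with sex as a term and -3.05 in males. Slco1a1, a male-biased organic anion transporter, had 19.4 to 81.2 in transgenic and 37.5, 32.7, 334, 35.8 and 5909 in old libraries, and did not pass (-2.09 ± 1.15, adjusted p = 0.483). Young wild type had 2444 to 25346, above all transgenic libraries and all but 1 old library.

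The major urinary proteins are lipocalins that male mouse liver makes under androgen and growth hormone control and that carry pheromones in urine. Their genes are near-identical copies, so their values are uncertain gene by gene, and their sum is given. They took 0.643%, 0.361%, 3.24%, 0.023% and 3.04% of the normalized total in old replicates 1 to 5. In transgenic libraries the share ran from 0.0133% to 0.11%. Only old replicate 4 lay inside the transgenic range, and young wild type was higher than most old libraries, at 0.999% to 12.7%. None of the 18 members tested passed, and all 18 were lower at an unadjusted p under 0.05, beside 1026 of all 14605 genes. The median difference was -4.10, with -5.54 in batch A and -2.11 in batch B. Mup19 had the smallest p among them (-6.18 ± 1.31, adjusted p = 0.054). Without old replicate 4, 13 of the 18 were called lower, beside 146 of 14595 genes, a fit given after that library was seen to stand apart.

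Of 25 female-biased liver genes tested Ntrk2 alone was called, and it was lower in transgenic liver. Ntrk2 encodes the receptor of brain-derived neurotrophic factor. The old females had 881 and 2015, while old males (replicates 3 to 5) had 69.4, 114 and 154, and transgenic libraries had 0.0 to 24.2 with a median of 15.3. The groups did not overlap, the difference was -4.91 ± 1.02 (adjusted p = 0.0478), and it was smaller in males alone (-3.20, adjusted p = 0.124 in that fit). In males alone the calls turned: Ntrk2 was lost and 2 other members were called higher, the sulfotransferase genes Sult2a1 (6.46, adjusted p = 0.0324) and Sult2a2 (5.90, adjusted p = 0.0324). Both were named after their values were seen, are close copies, and did not pass over all 11 libraries (3.11, adjusted p = 0.489, and 2.68, adjusted p = 0.534). The list's median of 0.37 was 2.03 in males and -0.92 in batch A. Sult2a7 and Sult2a8, adjacent sulfotransferase genes on chr7 that act on steroids and bile acids, were both lower at -5.21 ± 1.07 (adjusted p = 0.0473) and -4.06 ± 0.83 (adjusted p = 0.0451). They are close copies, so reads may have been divided between them. Sult2a7 had 1341, 2906, 1112.5, 69.5 and 148 in old replicates 1 to 5 and 0.0 to 37.8 in transgenic libraries. Its difference was -7.70 in batch A and -2.11 in batch B, and -4.20 in males alone (adjusted p = 0.249 in that limma fit). Of 11 fits that each left out 1 library, Ntrk2 was called in 2 (adjusted p up to 0.124), Sult2a7 in 3 (up to 0.123) and Sult2a8 in 2 (up to 0.147). Sult1e1, the estrogen sulfotransferase, pointed the other way, with 1046 to 15021 in transgenic libraries and 517, 235, 583, 2821 and 25.2 in old ones. It did not pass (4.22 ± 0.99, adjusted p = 0.0723), and young wild type was below both at 7.66 to 103.

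**Figure D2:**
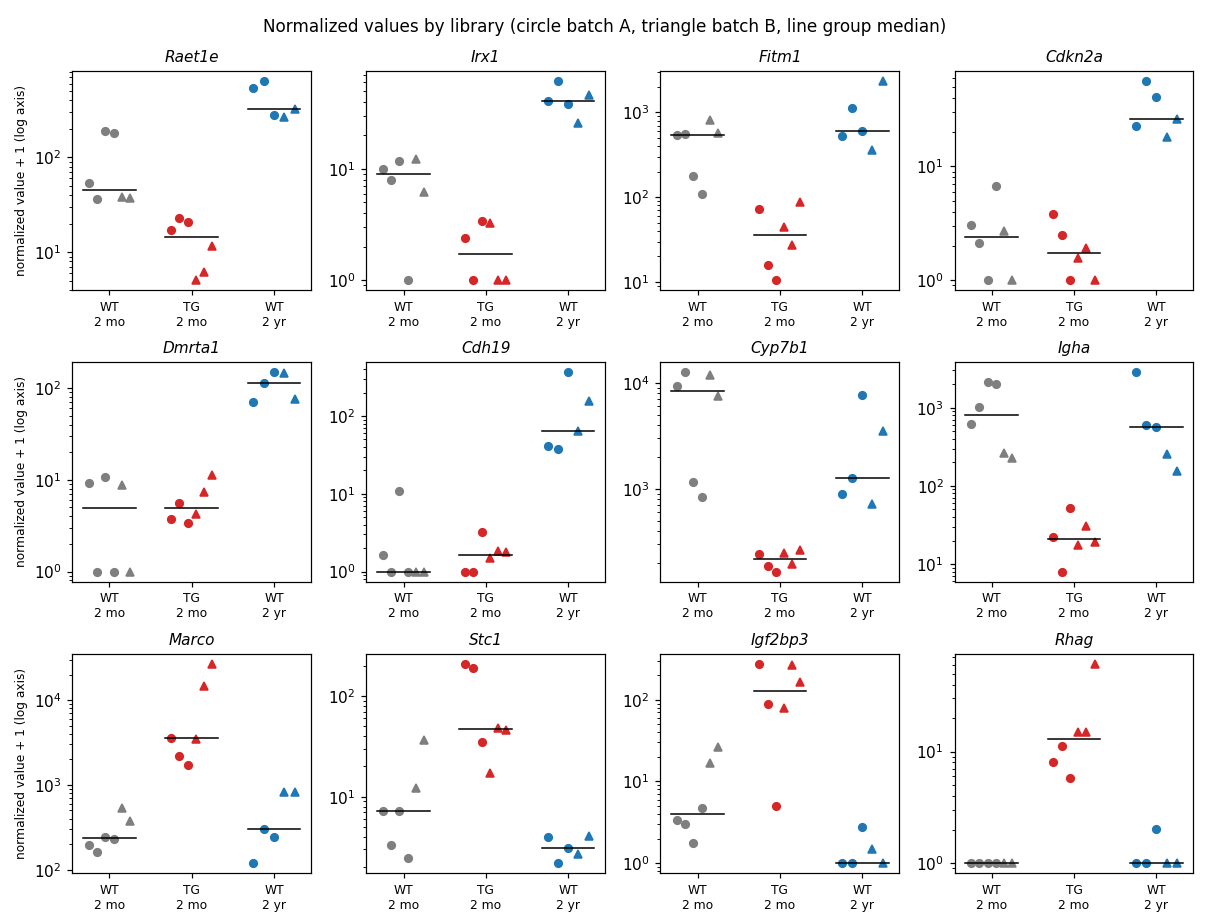
Normalized value + 1 of 12 genes in each of 17 libraries (vertical log axis) for young wild type (grey), transgenic (red) and old wild type (blue). In each panel the 6 transgenic libraries lie entirely to one side of the 5 old ones, while the young level lies with the old libraries for Fitm1, Igha and Marco and with the transgenic ones for Cdkn2a, Dmrta1 and Cdh19.

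Cdkn2a encodes p16INK4a and p19ARF, which hold back the cell cycle and mark senescent and aged tissue. Its normalized values were low in all libraries. Old replicates 1 to 5 had 21.4, 55.5, 39.9, 17.1 and 24.8, and transgenic libraries had 0.0 to 2.81 with a median of 0.74. Every old library was above every transgenic one, and young wild type lay at the transgenic level, at 0.0 to 5.77. The difference was -4.03 ± 0.54 (adjusted p = 0.00467). It was -4.13 in batch A alone, and its mean in batch B was under the minimum for a fit. Cdkn2a was the only one of 20 senescence and secretory genes that was called. Cdkn1a, which encodes the inhibitor p21, had 770.3 to 3283 in transgenic and 5096, 755, 2258, 208 and 537 in old libraries and did not pass (1.32 ± 0.56, adjusted p = 0.34). Lmnb1, the nuclear lamin B1, had a difference of -0.48 ± 0.38 (adjusted p = 0.641), and Glb1, the lysosomal beta-galactosidase, of -0.72 ± 0.20 (adjusted p = 0.135). The list's median was -0.06.

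Dmrta1, a DMRT family transcription factor gene, is the next called gene to Cdkn2a on chromosome 4 (chr4:89679436-89694772 and chr4:89274471-89294653, GRCm38). It had 69.7, 113, 148, 144 and 74.1 in old replicates 1 to 5 and 2.37 to 10.4 in transgenic libraries with a median of 3.94. The groups were far apart and young wild type (0.0 to 9.68) lay with the transgenic ones. The difference was -4.32 ± 0.41 (adjusted p = 0.00056). Cdh19, a cadherin known from the Schwann cell lineage, had the largest fall of all called genes (-5.84 ± 0.65, adjusted p = 0.0013). It had 39.9, 37.0, 366, 63.4 and 157 in old libraries against 0.0 to 2.19 in transgenic ones, and 0.0 to 9.75 in young wild type. Hsf2bp, a meiotic recombination factor, showed the same order (-4.18 ± 0.46, adjusted p = 0.00125) and was singled out after its values were seen. Irx1, an Iroquois homeobox gene, had 24.8 to 61.1 in old and 0.0 to 2.41 in transgenic libraries (-4.53 ± 0.54, adjusted p = 0.00229).

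For several other genes called lower in transgenic liver, the young wild-type level lay nearer the old level than the transgenic one. Fitm1, which helps to form lipid droplets, had 522, 1128, 601, 359 and 2363 in old replicates 1 to 5. Transgenic libraries had 9.54 to 87.6 with a median of 34.8, and young wild type had 109.6 to 820.2. Its groups did not overlap (-4.65 ± 0.59, adjusted p = 0.0035). Fam198a, which encodes a secreted Golgi protein, had 30.8 to 363 in old and 0.0 to 15.4 in transgenic libraries (-4.69 ± 0.79, adjusted p = 0.0181). Grid1, a glutamate receptor subunit (-4.76 ± 0.83, adjusted p = 0.0216), and Tmem28, of which no role is given here (-4.78 ± 0.79, adjusted p = 0.016), were also among the 12 largest falls without overlap. The last 2 had medians of 1.47 and 0.0 in transgenic liver, and their young level lay near the middle. Fam198a and Grid1 were called in 8 and Tmem28 in 10 of 11 fits that left out 1 library (adjusted p up to 0.0805). Among the smallest p-values, chosen after the values were seen, were Tiam2, an exchange factor of the GTPase Rac (-4.09 ± 0.35, adjusted p = 0.000361), Ugt3a1, a glycosyltransferase (-2.81 ± 0.28, adjusted p = 0.000736), and Mapk15, an atypical MAP kinase (-3.13 ± 0.33, adjusted p = 0.00103). Mme, the membrane protease neprilysin, and Nox4, an NADPH oxidase that makes hydrogen peroxide, were lower by the same test (-3.71 ± 0.44, adjusted p = 0.0022, and -4.15 ± 0.52, adjusted p = 0.00329). All 5 were called in each of the 11 fits that left out 1 library.

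Genes of antibody-producing cells were lower in transgenic liver. Igha, the constant region of immunoglobulin A, had 2839, 598, 560, 258 and 155 in old replicates 1 to 5. Transgenic libraries had 7.02 to 50.4 with a median of 19.8. The groups did not overlap, and young wild type lay with the old at 226 to 2131 (-4.51 ± 0.62, adjusted p = 0.00556). Ighd, the constant region of immunoglobulin D, also fell (-3.81 ± 0.77, adjusted p = 0.0435), although in only 2 of 11 fits that left out 1 library (adjusted p up to 0.135). They were among the 3 members called of 21 B and plasma cell markers tested, which is 14.3% beside 0.541% of all genes. A further 11 were lower at an unadjusted p under 0.05, and 1 of 21 had a difference above 0. Ighd had a mean of 1.77 in transgenic libraries and passed the minimum mean of 10 only through the old ones. Such a filter can raise the share called, which is a description only. The list's median was -1.97, with -2.39 in batch A and -0.69 in batch B. With sex as a term 2 of the 21 were called lower, and in males alone 1. Ighm, the constant region of immunoglobulin M, was not among those called (-1.5 ± 0.51, adjusted p = 0.217). It had 142 to 1213 in transgenic and 1038 to 3756 in old libraries, both mostly above young wild type at 86.6 to 346. The summed level of the markers was 0.0386% to 0.0565% of the total in transgenic and 0.0585% to 0.0893% in old libraries. In young wild type it was 0.032% to 0.045%, below every old library. The sum includes Xbp1 (-0.24), which is also on the unfolded protein response list and is not particular to these cells. The summed level, also that of young wild type, is therefore not a level of B and plasma cells alone. The 6 markers used to define these cells summed to normalized values of 297.5 to 2601 in transgenic and 2570 to 8624.5 in old libraries. Most of the list's sum lay outside these 6 in both groups. Immunoglobulin genes are repeated in sequence, so values of single segments are uncertain.

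MHC class II genes, which present antigen on B cells, dendritic cells and activated macrophages, showed the same direction without a call. All 10 tested had differences below 0, 8 at an unadjusted p under 0.05, and the median was -2.22. H2-Eb1 had 87.1 to 281 in transgenic libraries and 972, 2448, 420.2, 272 and 3863 in old replicates 1 to 5 (-2.84 ± 0.64, adjusted p = 0.0652). H2-Aa, the alpha chain of the other class II pair, had a difference of -2.64 ± 0.63 (adjusted p = 0.0762). Old replicate 4 was the library that overlapped in both, and without it 6 of the 10 were called lower, beside 146 of 14595 genes. That fit is given after the overlap was seen, and leaving out the overlapping library widens the difference by itself. Young wild type (H2-Aa 1044 to 1519) was within the old range. The B cell markers and the class II genes were both lower in the transgenic libraries, and the part of B cells in the class II result was not tested. Of 18 MHC class I and immunoproteasome genes none was called, with a median of -0.47 and H2-Q7 at the smallest p (-0.90 ± 0.27, adjusted p = 0.161).

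Marco, a scavenger receptor of macrophages that binds bacteria, was the only one of 18 Kupffer cell markers called. Old replicates 1 to 5 had 119, 304, 241, 827 and 821. Transgenic libraries had 1703 to 26841 with a median of 3537, the lowest more than the highest old library. Young wild type lay with the old at 162 to 529.7. The difference was 3.62 ± 0.45 (adjusted p = 0.00329), with 3.52 in batch A and 3.75 in batch B, and the median over the Kupffer list was 0.02. Transgenic replicates 5 and 6 had the highest values, 14543 and 26841.

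The neutrophil markers, which include granule proteins and chemokine receptors, had no called member. All 25 had a difference above 0, 11 of them at an unadjusted p under 0.05, and the median was 1.97, with 1.31 in batch A and 3.50 in batch B. Stfa2l1, a neutrophil cystatin, had the smallest p (3.87 ± 0.85, adjusted p = 0.0626). The summed level of the list ran from 0.0781% to 0.413% of the total in transgenic and from 0.043% to 0.207% in old libraries. The groups overlapped through old replicates 3 and 4. This sum includes Lcn2, which is also on the acute-phase list and had 49114 and 17965 in those old libraries. The 8 markers used to define neutrophils, without Lcn2, summed to normalized values of 421 to 44106 in transgenic libraries (median 6961). In old libraries they summed to 92.6 to 2033 (median 514). Acute-phase genes, which hepatocytes make in inflammation, were variable in both groups. Of 32 tested none was called, 27 were above 0 and the median was 0.79. Saa1, serum amyloid A, had 631 to 1005015 in transgenic and 1280 to 373913 in old libraries (1.60 ± 1.66, adjusted p = 0.737), with -0.45 in batch A and 4.15 in batch B. Lcn2, the iron-siderophore-binding lipocalin, had 2161 to 82638 in transgenic and 1803, 971, 49114, 17965 and 549 in old libraries (2.29 ± 1.20, adjusted p = 0.451). A2m, a protease inhibitor of the acute phase in some species, had the list's smallest p (4.34 ± 1.45, adjusted p = 0.209).

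**Figure D3:**
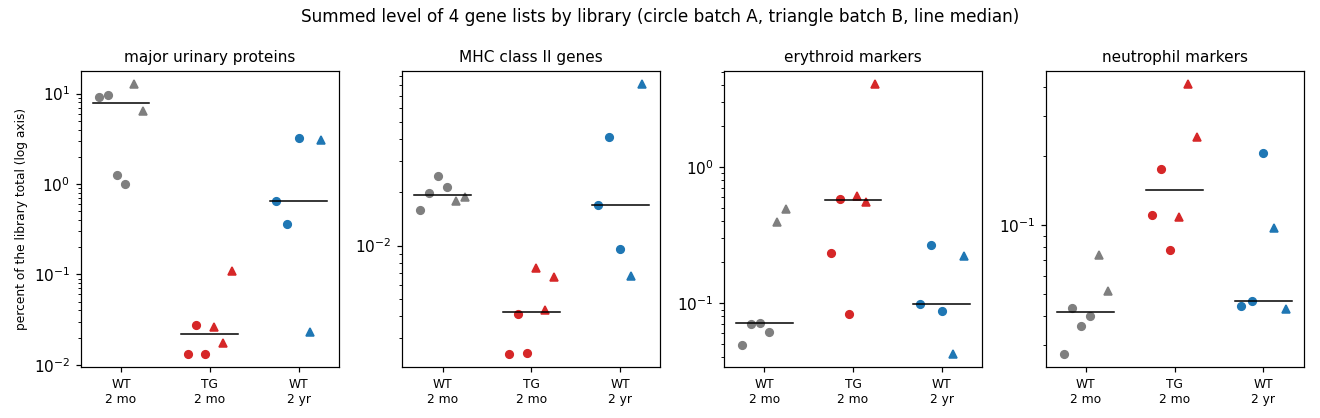
Summed normalized value of 4 gene lists as a percent of the library total (vertical log axis) in young wild type, transgenic and old libraries. Major urinary proteins and MHC class II genes are low in transgenic libraries, with old replicate 4 the lowest old library in both panels. The erythroid and neutrophil sums overlap between transgenic and old, and the neutrophil sum includes Lcn2.

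Of 12 erythroid markers tested 2 were called, both higher in transgenic liver. Rhag, called higher, an ammonium channel of red cell precursors, had 0.0, 0.0, 1.03, 0.0 and 0.0 in old replicates 1 to 5. Transgenic libraries had 4.82 to 60.5 with a median of 12.1, above every old library, and young wild type was at 0.0 throughout (3.52 ± 0.65, adjusted p = 0.0305). The 2 calls are 16.7% of the markers tested beside 0.267% of all genes. Rhag had a mean of 0.21 in old libraries and passed the minimum mean of 10 only through the transgenic ones. Of 19 listed markers 12 were tested, so this filter can raise the share, which is a description only. Of the 12 markers 9 had a difference above 0, 7 were higher at an unadjusted p under 0.05, and the median was 2.20. The 3 below 0, chosen after their values were seen, were the alpha globin genes Hba-a1 (-1.80, adjusted p = 0.416) and Hba-a2 (-1.62, adjusted p = 0.473), which are near-identical copies, and Klf1, a transcription factor of red cell precursors (-0.75, adjusted p = 0.614). Hbq1b, a theta globin gene that has a near-identical copy, was higher as well (3.59 ± 0.69, adjusted p = 0.034). Transgenic replicate 6 was the highest library for both. Of the fits that left out 1 library and tested the gene, Rhag was called in 3 of 8 (adjusted p up to 0.108) and Hbq1b in 2 of 10 (up to 0.122). The erythroid sum was 0.0835% to 4.07% of the total in transgenic and 0.0427% to 0.267% in old libraries, and 0.0495% to 0.493% in young wild type. Tfrc, the transferrin receptor through which cells take up iron, had 711 to 6179 in transgenic and 599, 407, 877, 308 and 203 in old libraries (2.36 ± 0.34, adjusted p = 0.00851). It moved in the same direction as Rhag and Hbq1b, it was chosen after its values were seen, and the part of red cell precursors in it was not tested. Of 7 platelet and megakaryocyte markers none was called, and Ppbp, a platelet chemokine, had the smallest p (-2.32 ± 0.56, adjusted p = 0.0781).

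The largest rise belonged to Igf2bp3, an RNA-binding protein of fetal tissues and many liver tumours. It was at 0.0, 0.0, 1.76, 0.48 and 0.0 in old replicates 1 to 5. Transgenic replicates 1 to 6 had 275.6, 87.3, 4.01, 77.6, 269 and 165, so that replicate 3, the female, was far below the other 5 and still above every old library. Young wild type had 0.76 to 25.3. The difference was 5.96 ± 0.90 (adjusted p = 0.0105), with 5.15 in batch A and 6.97 in batch B. Igf2bp3, Bex1 and Cd24a were the members called of 14 fetal and imprinted liver genes tested, which is 21.4% beside 0.267% of all genes. Igf2bp3 and Bex1 had means of 0.45 and 2.58 in old libraries and passed the minimum mean of 10 only through the transgenic ones. Of 18 listed genes 14 were tested, so this filter can raise the share. The list was also chosen with earlier results of these data known, so the share is a description only. Bex1, a small brain-expressed X-linked protein, had 6.06 to 529 against 1.08 to 3.83 in old libraries (4.67 ± 0.87, adjusted p = 0.0309). Cd24a, a surface glycoprotein of progenitor cells that red cell precursors and granulocytes also carry, had 181 to 2647 against 63.1 to 117 (2.57 ± 0.51, adjusted p = 0.0397). Igf2bp3 was called in all 11 fits that left out 1 library, Bex1 in 3 (adjusted p up to 0.113) and Cd24a in 4 (up to 0.14). The median of the 14 was 0.95 and 11 were above 0. Transgenic replicates 5 and 6 had the most Cd24a, 823 and 2647. They also had the highest summed neutrophil markers (0.413% and 0.243% of the total, Lcn2 included), whose part in the Cd24a difference was not tested.

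Bex1 has 2 called neighbours on the X chromosome, Bex4 and Tceal5, which belong to the same family of small proteins. The run of 3 spans chrX:136138996-136215513 (GRCm38). Tceal5 had 0.97, 0.0, 0.0, 2.81 and 1.02 in old replicates 1 to 5 and 9.44 to 737 in transgenic libraries with a median of 106.8 (5.70 ± 0.87, adjusted p = 0.0105). Bex4 had 0.0 to 20.5 in old and 40.3 to 327 in transgenic libraries (3.91 ± 0.76, adjusted p = 0.0346). In all 3 genes transgenic replicate 1 was the highest library and replicate 3 the lowest, and no transgenic library reached down to an old one. Tceal5 was called in all 11 fits that left out 1 library and Bex4 in 4 (adjusted p up to 0.122). Their similar sequences make the division of reads between them uncertain. Over all 118 called genes, 19 had another called gene within 1000000 bases. The same count for random sets of tested genes was not computed, so it does not show clustering. The 19 include the overlapping Raet1d and Raet1e, the close copies Sult2a7 and Sult2a8, and Zbtb8b and Serinc2, which differed in opposite directions.

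Further rises without overlap were in genes of hormones, receptors and the cytoskeleton. Tuba8, an alpha tubulin, had 38.9, 21.5, 146, 62.4 and 47.4 in old replicates 1 to 5 and 306 to 652 in transgenic libraries with a median of 563 (3.16 ± 0.42, adjusted p = 0.00457). Its young wild-type values, 36.3 to 99.3, lay with the old. Stc1, the glycoprotein hormone stanniocalcin 1, had 16.2 to 207 in transgenic and 1.20 to 3.05 in old libraries (4.38 ± 0.59, adjusted p = 0.00528). Ffar4, a receptor of long-chain fatty acids, had 64.6 to 1595 against 1.98 to 14.1 (4.93 ± 0.81, adjusted p = 0.0157), and both Stc1 and Ffar4 were highest in transgenic replicates 1 and 2. Cfap69, a protein of cilia and flagella, had 14.7 to 114.9 against 1.89 to 8.08 (3.66 ± 0.59, adjusted p = 0.0135). Slc1a4, a transporter of alanine, serine and cysteine, was higher too (2.48 ± 0.46, adjusted p = 0.0296), and Aldh3a2, the fatty aldehyde dehydrogenase, was lower (-1.53 ± 0.32, adjusted p = 0.0478). These 2 were the only ones called of 18 pericentral genes, whose median was -0.01. Slc1a4 was called in 4 and Aldh3a2 in 3 of 11 fits that left out 1 library (adjusted p up to 0.11 and 0.162), Cfap69 in 10 (up to 0.0621).

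**Figure D4:**
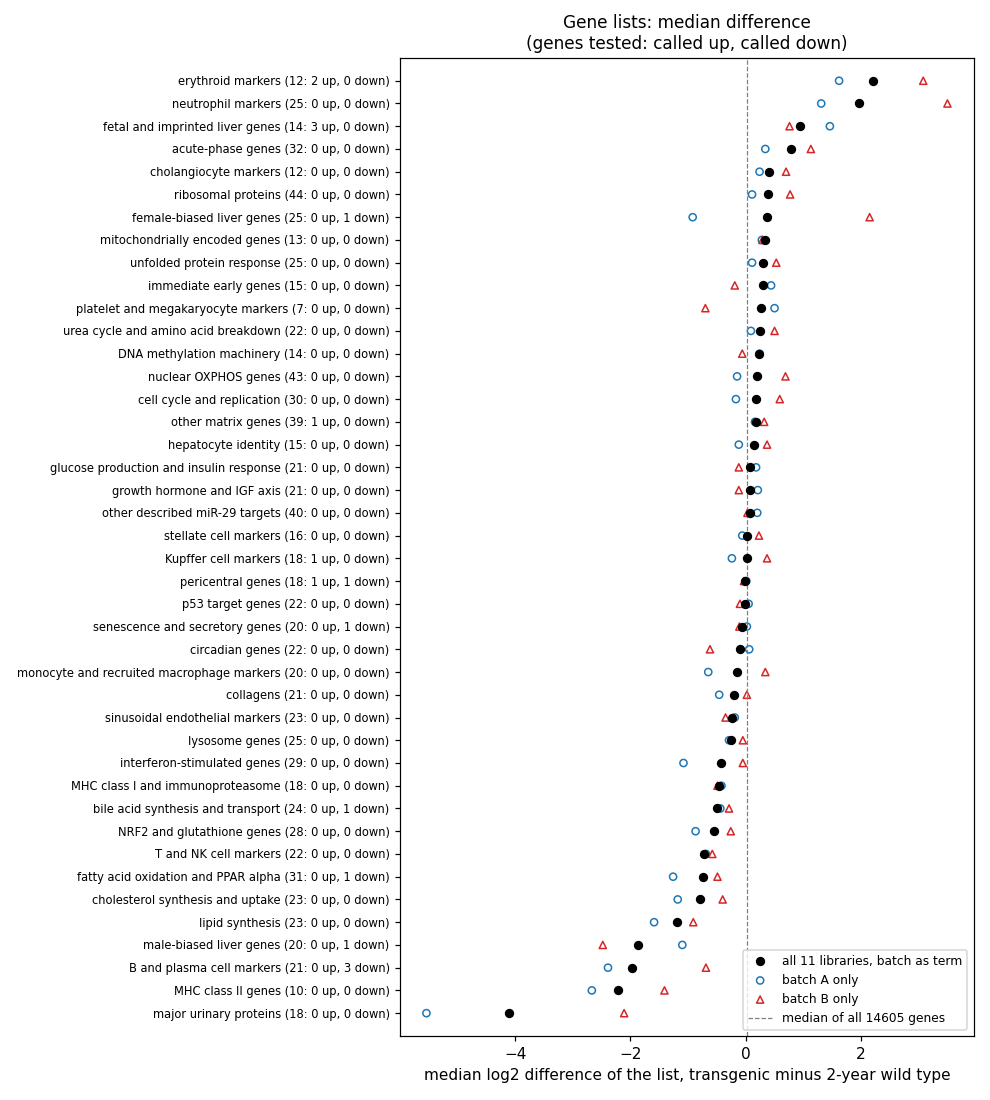
Median log2 difference (transgenic minus old) of 42 gene lists over all 11 libraries (black) and in each batch alone (blue circles batch A, red triangles batch B), with the numbers tested and called beside each name. Erythroid and neutrophil markers have the highest medians (2.20 and 1.97) and the major urinary proteins the lowest (-4.10), and female-biased genes differ in sign between the batches.

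Genes of fat metabolism were mostly below the old level in transgenic liver, with 1 call. Vnn1, a pantetheinase under PPAR alpha control, had 2624, 1796, 1448, 107 and 714 in old replicates 1 to 5 and 51.7 to 311 in transgenic libraries with a median of 143. Old replicate 4 lay inside the transgenic range (-2.53 ± 0.49, adjusted p = 0.034), and the gene was called in 2 of 11 fits that left out 1 library, with adjusted p up to 0.122. It was the only one called of 31 fatty acid oxidation and PPAR alpha genes, of which 16 were lower at an unadjusted p under 0.05 and whose median was -0.74, as it was in males alone, where Vnn1 was not called (-2.05, adjusted p = 0.227). In lipid synthesis, 12 of 23 genes were lower at an unadjusted p under 0.05, none was called and the median was -1.20, which was -0.47 in males alone. Acacb, the mitochondrial acetyl-CoA carboxylase, had the smallest p (-1.71 ± 0.40, adjusted p = 0.0721), and Fasn, the fatty acid synthase, had 1579 to 24723 against 1746 to 57527 in old libraries (-1.72 ± 0.87, adjusted p = 0.435). The 2 highest Fasn values were those of the old females, and in males alone the difference was -0.47. Cholesterol synthesis and uptake genes had a median of -0.80 (-0.28 in males alone) with no call among 23, led by Sc5d, a late enzyme of sterol synthesis (-1.56 ± 0.58, adjusted p = 0.26). Of 24 bile acid genes Cyp7b1 alone was called and the median was -0.50. Cd36, the fatty acid translocase, did not differ detectably (0.03 ± 0.26, adjusted p = 0.974). It had 2145 to 4988 in transgenic and 1598 to 6719 in old libraries, beside 272 to 3493 in young wild type.

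Other metabolic lists had no call. Igfals, the acid-labile subunit that carries IGF1 in blood, had 174 to 1337 in transgenic and 1431 to 3674 in old libraries and did not pass (-2.29 ± 0.50, adjusted p = 0.0592). The groups did not overlap, and none of 21 growth hormone and IGF axis genes was called (median 0.08). Igf1 itself had 5403 to 10926 in transgenic libraries and 21335, 19925, 23219, 14528 and 11770.1 in old ones. Its groups also did not overlap, and young wild type, at 11388 to 18351, lay above all transgenic libraries (-1.06 ± 0.24, adjusted p = 0.0637). Ghr, the growth hormone receptor, had a difference of -1.11 ± 0.33 (adjusted p = 0.149). Cat, the peroxisomal catalase, led the 28 NRF2 and glutathione genes (-1.51 ± 0.33, adjusted p = 0.0632, list median -0.55). Ppargc1a, a coactivator of fasting metabolism, led the 21 genes of glucose production and insulin response (1.97 ± 0.45, adjusted p = 0.0681, median 0.08). Nags, which makes the activator of the urea cycle, led 22 urea cycle and amino acid genes (0.75 ± 0.19, adjusted p = 0.0909, median 0.24). Noct, a deadenylase-related circadian gene, led 22 circadian genes (-1.28 ± 0.31, adjusted p = 0.0762, median -0.10), and sampling times are not given in the sources used here.

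None of the ribosomal protein, OXPHOS, unfolded protein response and lysosome genes tested was called. Ribosomal protein genes had a median of 0.38 with 43 of 44 above 0 and none called, and their sum was 1.01% to 3.76% of the total in transgenic, 0.784% to 2.01% in old and 0.755% to 2.89% in young libraries. The highest of each group was in batch B. Rps18, a small-subunit protein, had the list's smallest p (0.63 ± 0.30, adjusted p = 0.401). In their lists the smallest p belonged to mt-Atp6, a mitochondrially encoded ATP synthase subunit (0.59 ± 0.29, adjusted p = 0.419), and to Ndufv1, a complex I subunit (0.54 ± 0.35, adjusted p = 0.553). These lists, of 13 mitochondrially encoded and 43 nuclear OXPHOS genes, had medians of 0.34 and 0.20. Sdf2l1, a chaperone of the endoplasmic reticulum, led 25 unfolded protein response genes (1.62 ± 0.35, adjusted p = 0.0563), of which 8 were higher and none lower at an unadjusted p under 0.05 (median 0.30). In males alone 2 of them were called higher, Sdf2l1 (2.12, adjusted p = 0.0284) and Dnajb11, a co-chaperone of the endoplasmic reticulum chosen after its values were seen (1.11, adjusted p = 0.0498). The list's sum was 0.447% to 0.677% in transgenic, 0.35% to 0.503% in old and 0.399% to 0.714% in young libraries. Lysosome genes had a median of -0.25 with no call among 25.

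No gene on the lists of collagens, DNA methylation genes and other described miR-29 targets passed the test. Of 21 collagen genes none was called, 1 was higher and 2 were lower at an unadjusted p under 0.05, and the median was -0.21. Col1a1, the alpha 1 chain of type I collagen, whose seed match is printed above, had 122, 174.5, 65.8, 57.3 and 243 in old replicates 1 to 5. Transgenic libraries had 33.5 to 192 with a median of 84.3, and the groups overlapped (-0.60 ± 0.51, adjusted p = 0.665). Young wild type had 168 to 472, above most libraries of both groups. Col3a1, of type III collagen, had 87.3 to 970.3 against 187 to 949 (-0.40 ± 0.63, adjusted p = 0.835), and in males alone its difference was 0.35. Col1a2 and Col4a1, of the type I fibre and the basement membrane, had 0.30 ± 0.30 (adjusted p = 0.726) and -0.20 ± 0.31 (adjusted p = 0.835). Mean values in young, transgenic and old liver were 1158, 462 and 501 for Col3a1 and 569, 316 and 269 for Col1a2. For Col4a1 they were 759, 678 and 770. Differences from young wild type were not tested here. The smallest p of the list was that of Col15a1, a basement membrane collagen with 1 match (-1.47 ± 0.34, adjusted p = 0.0721). Eln, elastin, had 29.3 to 153.7 against 18.6 to 98.3 (0.46 ± 0.44, adjusted p = 0.71), and Sparc, a collagen-binding matricellular protein, had 1375 to 4504 against 999 to 2266 (0.66 ± 0.31, adjusted p = 0.396). The DNA methyltransferases Dnmt3a and Dnmt3b had -0.24 ± 0.35 (adjusted p = 0.822) and 0.74 ± 0.42 (adjusted p = 0.504), and of 14 genes of that machinery none was called (median 0.23), with the methyl-CpG-binding Mbd1 at the smallest p (-0.68 ± 0.27, adjusted p = 0.30). Of 40 other described targets none was called, and the median was 0.08. At an unadjusted p under 0.05, 6 were higher and 1 was lower, beside 851 and 1026 of all 14605 genes. Igf1, with 2 matches, had the smallest p of these targets (-1.06 ± 0.24, adjusted p = 0.0637).

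Adamts2, the protease that removes the N-terminal propeptide of procollagens, was the only one called of 39 other matrix genes, and it was higher in transgenic liver. Old replicates 1 to 5 had 109.7, 105, 67.0, 82.7 and 94.0. Transgenic replicates 1 to 6 had 632, 400.4, 716, 129, 186 and 170.1, with batch A well above batch B and all 6 above the old libraries. Young wild type had 145 to 265. The difference was 1.83 ± 0.34 (adjusted p = 0.0309), with 2.61 in batch A and 0.85 in batch B, and it was called in 3 of 11 fits that left out 1 library. Its longest 3′ UTR of 3544 bases holds the 4 seed matches printed above. Searched on the transcript strand in the longest 3′ UTR of protein-coding transcripts, TGGTGCT was absent from 10968 of 12961 tested genes, whose median difference was 0.01. It occurred once in 1684 genes with a median of 0.04, and at least 2 times in 309 genes with a median of 0.07. Of the 309, 0 were called lower by limma and 1, Adamts2, higher, beside 60 lower calls (0.547%) among the genes without a match. Genes with a match had longer 3′ UTRs (median 2425 bases against 982). Among the genes with the longest UTRs, the top tercile, the medians were 0.06 with and 0.01 without a match. A match of 7 bases is a description and not a bound site.

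Markers of the remaining cell types held no called gene. None passed among 23 sinusoidal endothelial, 16 stellate, 12 cholangiocyte, 22 T and NK cell and 20 monocyte and recruited macrophage markers, with medians of -0.24, 0.03, 0.40, -0.73 and -0.15. Their smallest p-values were those of Vwf, the clotting factor of endothelial cells (1.34 ± 0.35, adjusted p = 0.10), Ngfr, a neurotrophin receptor (-1.46 ± 0.51, adjusted p = 0.227), and Cdh1, E-cadherin (1.93 ± 0.50, adjusted p = 0.0981). For the lymphocyte and macrophage lists they were those of Il7r, the interleukin 7 receptor (-1.51 ± 0.51, adjusted p = 0.217), and Itgax, CD11c (-1.82 ± 0.49, adjusted p = 0.11). Of 29 interferon-stimulated genes none was called (median -0.43), with the chemokine Cxcl9 at the smallest p (-2.29 ± 0.92, adjusted p = 0.316). Hepatocyte identity genes had a median of 0.14 with no call among 15, and Serpina1c, an alpha-1-antitrypsin gene with close copies, had the smallest p (-1.34 ± 0.49, adjusted p = 0.254). Among 30 cell cycle and replication genes none was called (median 0.18), Ccne2, cyclin E2, led (0.86 ± 0.31, adjusted p = 0.249) and the proliferation marker Mki67 had 22 to 321 against 33.0 to 84.5 (0.93 ± 0.64, adjusted p = 0.584). Of 22 p53 target genes none was called (median -0.02), with Eda2r, a TNF receptor family member that p53 induces, at the smallest p (-2.51 ± 0.56, adjusted p = 0.0633), and Trp53 itself had no call (-0.12 ± 0.19, adjusted p = 0.829). Of 15 immediate early genes none was called (median 0.30), led by Btg2, an antiproliferative early gene (1.88 ± 0.47, adjusted p = 0.0885).

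The young wild-type libraries place each difference. On a scale where the batch-adjusted old level is 0 and the transgenic level is 1, the young level was nearer the old one in 95 of 118 called genes (80.5%), as a description with no test. Over all genes tested the share was 57.6%, and in male libraries alone it was 79.7% of called and 40.5% of all genes. Among the 39 genes called higher, 37 had the young level nearer the old, Igf2bp3 (0.38), Stc1 (0.30), Marco (-0.09) and Tuba8 (0.07) among them. Among the 79 called lower, 58 did, such as Igha (-0.09) and Fitm1 (0.22). The young level lay between the other 2 in 77 called genes, as for Raet1e (0.53), whose values were highest in old, intermediate in young and lowest in transgenic liver. It lay on the far side of the old level in 38 and on the far side of the transgenic level in 3. A position over 0.75, where young resembles transgenic and the old libraries stand alone, was found in 7 called genes, all lower in transgenic, with Cdkn2a (0.94), Cdh19 (1.0), Dmrta1 (1.18), Sult2a7 (0.79) and Hsf2bp (0.76) among them. This placement does not adjust for sex, although the 3 groups are not equally male.

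**Figure D5:**
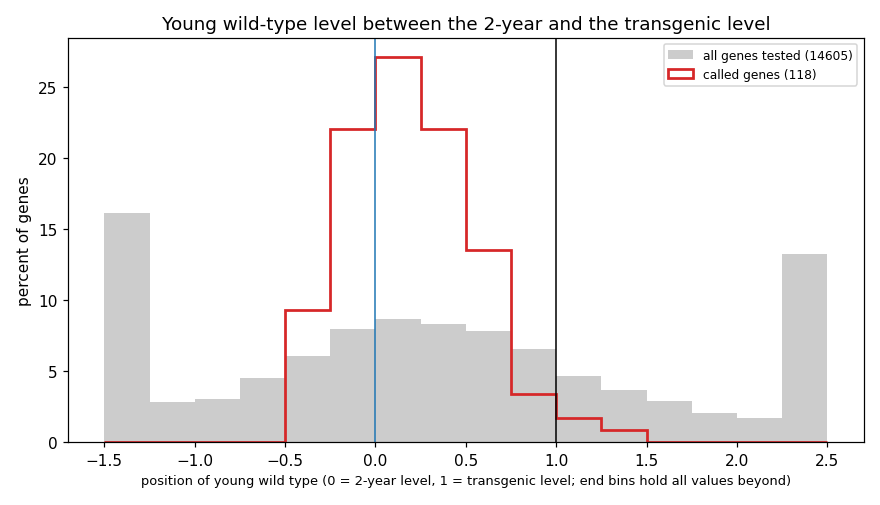
Position of the young wild-type level on a scale from the old level (0, blue line) to the transgenic level (1, black line), as percent of the 118 called genes (red outline) and of all 14605 genes tested (grey bars). The called genes gather near and just above 0, where 95 of 118 lie nearer the old level.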

How the data were processed

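Liver RNA was measured in 11 libraries compared here and 6 young wild-type libraries used as a reference level. The tools named in the submitters' processing notes are STAR 2.5.3a, Salmon 0.6.0 and DESeq2, with the mm10 build. The sources used here give neither their roles nor the annotation and strand setting. Deposited by the authors was the normalized signal per gene (gene counts divided by size factors, per the file headers and names) for 48440 genes, of which 48058 matched the reference names. For 27 symbols that had become dates the reference symbol was used. Between 8.6% and 55.7% of a library's low values lay within 0.1 of a whole step, so reads were not recovered, depth is unknown and no counting interval is given. From 2 further tables of the authors' own comparisons, which hold log2 fold changes, p-values (raw and adjusted) and a test score per the file headers, only the fold changes were used, as an alternative.

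Here, genes with a mean of at least 10 over the 11 libraries were fitted with limma 3.58.1 in R 4.3.3 (lmFit, eBayes with trend) on log2(value + 1), with group and batch as terms. P-values were two-sided and Benjamini-Hochberg adjusted over all 14605 genes, and a gene was called at an adjusted p under 0.05. The fit was tested on simulated data. Within-batch values came from each batch alone, and the difference between batches from an interaction term. Named genes are the 12 largest called differences per direction without overlap between groups (at most 2 genes per symbol stem, no predicted genes), up to 3 called members per list and direction or else the member with the smallest p, and fixed genes; others are said to be chosen after their values were seen. The 42 gene lists are described by counts and medians, with no list test. Seed matches were counted in the longest 3′ UTR of at least 30 bases of a protein-coding transcript (GENCODE M21, GRCm38). The members and lists were chosen with earlier results of these data known. Alternatives changed the covariates, libraries, pseudocount, filter, scaling, variance model and pairing. The replicate numbers were not taken to pair the libraries, since the labels do not say so. Some genes that the naming rule picks are not reported here.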

Additional observations from a re-analysis of the deposited data

Results flagged for a closer look

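In each group of the 101 genes named in the text, the highest and the lowest library were compared with their nearest neighbour on the log2 scale by Dixon's gap test, which flags about 1 in 20 groups by chance; 11 of 202 groups had a library apart by this test. In transgenic liver, Igf2bp3 was 4.01 in replicate 3, far below the other 5 libraries. Bex4 was 327.1 and Cdh1 was 1203.3 in transgenic replicate 1, both above the rest of the group. Sult2a7 was 0.0 in transgenic replicate 1 and Ntrk2 was 0.0 in transgenic replicate 2, each below the other 5. Mup19 was 2412.0 in transgenic replicate 6, above the others. Ighm was 142.4 in transgenic replicate 2, Serpina1c was 16221.9 in transgenic replicate 3 and Cdkn1a was 770.3 in transgenic replicate 4, all the lowest of 6. Sult2a1 was 1322.0 in transgenic replicate 2, also the lowest of 6. In old liver, Rhag was 1.03 in replicate 3, with the other 4 libraries at 0.0. No cause of these was tested.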

How the results depend on the processing

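With sex as a term, male libraries only, a pseudocount of 0.5 or 5, no filter, equal totals, quantile normalization or robust variance, the counts of called genes stayed within 1.5 times of the 118, 39 higher and 79 lower reported. Batch A alone gave 37 calls (8 higher, 29 lower) and batch B alone 29 (16 higher, 13 lower), from fewer libraries. All 17 libraries in the fit gave 324 (101 higher, 223 lower), or 399 (111 higher, 288 lower) with sex as a term. A mean of at least 50, which tests 11750 genes, gave 75 calls, 49 of them lower. The replicate block (replicate numbers as pairs over numbers 1 to 5 in place of batch) gave 63 calls, 16 higher and 47 lower; same-numbered libraries correlated at -0.139 to 0.217 and 2 of 10 libraries correlated best with their own number. The share of higher calls was 33.1%, and 22.6% with sex as a term. Leaving out 1 library gave 37 to 211 calls, 11 to 65 higher and 26 to 146 lower, lowest without old replicate 5 and highest without old replicate 4. Genes that differed between batches numbered 0 as reported, 1 with sex as a term, 1 with a pseudocount of 5, and 0 to 6 leaving out 1 library. Of the 39 called genes named in the text, 21 were called in every such fit that tested them.

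Directions turned in genes that were not called over the 11 libraries. In batch A alone Mki67 was -0.12, Saa1 -0.45, Dnmt3a 0.33, Trp53 0.03, Cd36 -0.42, Sult2a1 -0.07, Sult2a2 -0.67 and Cyp2d9 1.38. Col3a1 was 0.35 in males and 0.24 in batch B. Leaving out 1 library gave Cd36 -0.10 to 0.19 and Serpina1e -2.20 to 0.16 (the latter without old replicate 3). The cause of these changes was not tested. Depth is unknown, so genes listed at 0 carry no detection limit. Genotype and age are fully confounded in this comparison, since every transgenic library is young and every wild-type library compared is old. Their parts in a difference cannot be told apart. Sex and group are partly confounded (1 of 6 transgenic and 2 of 5 old libraries are female), and both old females are in batch A.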
